A study of Rattus norvegicus with 40 samples.

Results

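The molybdenum cofactor genes described here are 7 of the 14497 genes that 1 transcript cluster or more of the rat array names singly: Mocos, Xdh, Aox1, Suox, Mocs1, Mocs2 and Gphn. The starting point was Mocos, chosen because it rose most with rapamycin after partial hepatectomy among the genes that passed the test, and the other 6 were added because their products make or carry the same cofactor. Each gene was read from the transcript cluster whose only platform symbol is that gene, and each had exactly 1 such cluster, so all 7 were found. All 7 also passed the filter on low intensity. Because the hepatectomy arrays chose Mocos, its values there are given as a description with no test. The other 6 genes were chosen by function and were tested in every comparison.

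The molybdenum cofactor is a pterin that holds the metal in its active form. MOCS1 starts its synthesis from a guanine nucleotide, MOCS2 adds the sulfur atoms that will hold the metal, and gephyrin, encoded by Gphn, inserts molybdenum. Sulfite oxidase, encoded by Suox, uses the cofactor in that form, whereas xanthine dehydrogenase (Xdh) and aldehyde oxidase (Aox1) work only after the sulfurase MOCOS has exchanged an oxygen for a sulfur. In liver these enzymes oxidise purines to uric acid, aldehydes and nitrogen heterocycles, and sulfite.

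The study measured liver RNA of Sprague Dawley rats on 40 arrays, taken here as 20 livers. Fetal rats received 50 µg of rapamycin, an inhibitor of the kinase complex mTORC1, or its solvent DMSO on gestational day 19, and livers were taken 24 h later. Adults of 125 to 150 g received 250 µg of rapamycin per 100 g body weight, or DMSO, either 1 h before a partial hepatectomy with harvest at 24 h, or after 48 h of fasting with harvest after 3 h of refeeding. Polysome RNA, which is mRNA that sediments with several ribosomes, and total RNA make 12 groups of 4 fetal or 3 adult livers each. The titles number the replicates of each fraction. The 2 fractions of 1 model, treatment and number are taken here as 1 liver. Sex is not stated in the labels, and no untreated group was among the samples. The labels call the replicates biological but also mention pooled polysome preparations, of unstated make-up.

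Levels are log2 array intensities, so a difference of 1 is a doubling. Every array was labelled from 100 ng of RNA and scaled to a common distribution, so a level is a share of the RNA of its fraction, and levels of different genes are not compared. In bulk liver, fewer cells of a type and less of an mRNA per cell cannot be told apart. Summed hepatocyte markers, 12 of 12 on the array, ranged from 127338 to 171385 intensity units over all arrays, and their mean log2 level from 12.375 to 13.69. The 3 hepatectomy polysome DMSO arrays carry the refeeding time point in 1 label field, against their titles. Their summed dividing-cell markers, 9 of 10 on the array, were 15638 to 20913, against 644 to 773 in refed polysome DMSO livers, so the titles were used.

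Mammalian mRNAs under the strongest control by mTORC1 begin with a C followed by an unbroken run of pyrimidines. The starts of the 7 mRNAs are therefore shown first, from RefSeq on rat assembly GRCr8, as 10 bases before the annotated start in lower case and the first 20 bases of the transcript in capitals.
Mocos: accgcggggaGTGCAGTCGACCACAGCAGT
Xdh: ctacttctcaAGAGCTCAGTGACTCCAGCA
Aox1: gactggctctGCTAGGGACCCGCTAGGGAT
Suox: tcttcttgttCTAGGTCTGCCACAATGCTG
Mocs1: gtcccgggctAGAGTGCTCTGGAGGCCCAC
Mocs2: cgcccggaagGTGGAGCATCCGGCTGCGCA
Gphn: ggccactgggCGCTCGGCCCCCTCCTTCCC
None of the 7 annotated starts had a C with at least 5 pyrimidines in an unbroken run, a pattern held by 2.63% of the 33469 promoters in the same table. Suox and Gphn began with C, but their runs stopped after 2 bases and 1 base. Annotated starts can differ from those used in rat liver, and the letters are a description only.

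Among the 7 promoters (250 bases before to 50 after the start), those of Mocos and Xdh shared the motif TTGCNNAA. The motifs searched, on both strands and after the promoters had been seen, were CCAAT, the E-box CACGTG, the forkhead core GTAAACA, the C/EBP core TTGCNNAA, the ATF4 core TGATGNAA, the antioxidant element TGACNNNGC and the STAT element TTCNNNGAA. A match to TTGCNNAA, the core bound by the C/EBP factors of liver, was found in 10.6% of all promoters. CCAAT was found in 37.5% of promoters and, among the 7 genes, in those of Xdh and Mocs1. Both sequences with TTGCNNAA are shown on the gene's strand with motif matches in capitals. That of Mocos is chr18:16206152-16206451, plus strand, and that of Xdh is chr6:27282069-27282368, plus strand, both on GRCr8.
Mocos: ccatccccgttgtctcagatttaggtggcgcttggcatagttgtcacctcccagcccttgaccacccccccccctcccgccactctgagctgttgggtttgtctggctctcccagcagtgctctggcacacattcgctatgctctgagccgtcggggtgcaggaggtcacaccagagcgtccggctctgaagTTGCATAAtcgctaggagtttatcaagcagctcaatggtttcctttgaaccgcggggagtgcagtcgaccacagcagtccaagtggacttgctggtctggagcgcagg
Xdh: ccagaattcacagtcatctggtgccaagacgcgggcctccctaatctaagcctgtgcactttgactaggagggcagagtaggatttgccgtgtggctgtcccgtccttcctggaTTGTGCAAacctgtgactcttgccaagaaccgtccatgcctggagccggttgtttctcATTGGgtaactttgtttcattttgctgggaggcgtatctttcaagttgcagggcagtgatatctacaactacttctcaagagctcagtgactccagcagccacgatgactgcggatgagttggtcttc
In Mocos the match lay at −58 to −51, counted from the start. In Xdh it lay at −136 to −129 and CCAAT at −78 to −74, both read on the other strand, unlike the match in Mocos. CACGTG (6.42% of promoters), GTAAACA (3.78%) and TGATGNAA (3.98%) were found in none of the 7. TGACNNNGC (12.1%) was found in Mocs2 alone of the 7, and TTCNNNGAA (8.87%) in Suox alone.

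Mocos, the cofactor sulfurase, was highest in rapamycin-treated livers after hepatectomy in both fractions. Its polysome levels were 10.43, 10.27 and 10.22 with rapamycin, against 8.62, 8.35 and 8.63 with DMSO. In total RNA of the same livers they were 10.17, 10.17 and 10.18 with rapamycin, against 8.51, 8.18 and 8.44 with DMSO. All 6 rapamycin arrays thus lay above all 6 DMSO arrays, and the rapamycin livers were close to one another. The difference was 1.77 ± 0.112 (SE) in polysome RNA, a 3.41-fold ratio, and 1.80 ± 0.112 in total RNA, a 3.47-fold ratio. Because this rise chose the gene, these values are a description. By estimate alone Ugt2b, a glucuronosyltransferase gene, ranked above Mocos in both fractions (2.80 and 2.27) and did not pass the test. The next below Mocos were Popdc2 in polysome RNA (1.58) and Thrsp in total RNA (1.66).

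Refed livers gave a different picture for Mocos, which spread over a wide range within each group. With rapamycin its polysome levels were 9.80, 8.24 and 7.84, against 10.08, 7.39 and 9.79 with DMSO. Its total RNA levels were 9.56, 8.08 and 7.73 with rapamycin, against 9.68, 7.54 and 9.29 with DMSO. In both treatments the groups held high and low livers and overlapped, and each liver was high or low in both of its fractions. The range within refed polysome DMSO livers, 2.69, was larger than the rapamycin difference after hepatectomy. The residual SD of Mocos in refed livers was 1.17, against 0.13 after hepatectomy, and 0.617% of the 10860 clusters had a larger one in refed livers. Its small SD after hepatectomy is partly set by the choice of a gene that passed the test there. The rapamycin difference was −0.46 ± 0.812 in refed polysome RNA (95% interval −2.25 to 1.32, limma adjusted p = 0.9999) and −0.38 ± 0.812 in total RNA (−2.16 to 1.40, adjusted p = 0.841). These intervals also hold changes as large as 1, in either direction.

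**Figure D1:**
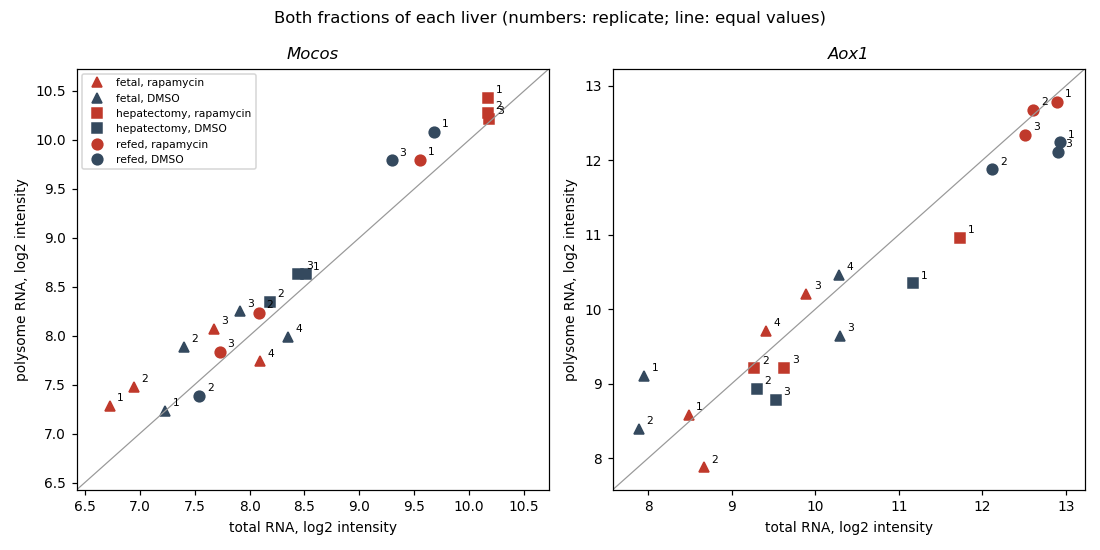
Total RNA level (x axis) against polysome RNA level (y axis) of each of the 20 livers, in log2 intensity, for Mocos and Aox1; red marks rapamycin, dark blue DMSO, shapes the models, and digits the replicate numbers. The 3 hepatectomy livers with rapamycin sit together at the top of the Mocos panel, refed livers spread along the line, and the hepatectomy livers numbered 1 stand above the other hepatectomy livers in the Aox1 panel.

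In fetal livers Mocos did not pass the test with rapamycin. Its polysome levels were 7.28, 7.48, 8.07 and 7.74 with rapamycin, against 7.23, 7.89, 8.25 and 7.99 with DMSO. In total RNA they were 6.73, 6.94, 7.68 and 8.10 with rapamycin, against 7.23, 7.40, 7.91 and 8.35 with DMSO. The groups overlapped, although in total RNA each rapamycin liver lay below the DMSO liver of the same number. The difference was −0.20 ± 0.312 in polysome RNA (adjusted p = 0.9997) and −0.36 ± 0.312 in total RNA (adjusted p = 0.9998). With the replicate number as a block, adjusted p for total RNA was 0.7696.

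Rapamycin called none of the other 6 genes after hepatectomy, and none of the 7 in refed or fetal livers. After hepatectomy limma called 0 of 6 in polysome RNA, where 6.35% of the 10860 clusters tested passed an adjusted p of 0.05, and 0 of 6 in total RNA, where 5.01% passed. In refed livers it called 0 of 7 in each fraction, as it called 0% of all clusters, with 526 clusters in polysome and 1832 in total RNA at an unadjusted p under 0.05. In fetal livers it also called 0 of 7 in each fraction and 0% of all clusters, with 247 and 199 clusters at an unadjusted p under 0.05. At an unadjusted p under 0.05 stood Xdh and Gphn in hepatectomy polysomes, as did 25.5% of all clusters (2774). Aox1 did so in refed polysomes, as did 4.84% of all clusters. None of the genes tested did in the other 4 comparisons, with 23.6% of all clusters in hepatectomy total RNA. The median difference of the 6 genes after hepatectomy was 0.24 in polysome RNA (all clusters −0.01) and 0.09 in total RNA (all clusters −0.01).

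Gphn and Xdh lay closest to the threshold in hepatectomy polysomes. Gphn, the molybdenum insertase that also anchors receptors at inhibitory synapses, had polysome levels of 11.98, 11.86 and 11.99 with rapamycin, against 11.81, 11.48 and 11.43 with DMSO. The groups did not overlap, and the difference was 0.37 ± 0.116 (adjusted p = 0.0772). Adjusted p was 0.04622 without both livers numbered 1, a setting chosen after seeing the data, and 0.01759 without the first DMSO polysome array alone. Of 12 fits that each left out 1 array, the other 11 kept Gphn uncalled, with adjusted p up to 0.228. Xdh, which forms uric acid from hypoxanthine and xanthine, had polysome levels of 11.40, 11.27 and 11.29 with rapamycin, against 11.24, 11.00 and 10.70 with DMSO. The groups again did not overlap, and the difference was 0.34 ± 0.128 (adjusted p = 0.122), or 0.47 with adjusted p = 0.02547 without the first DMSO polysome array. The other 11 of 12 such fits kept Xdh uncalled, with adjusted p up to 0.3318. In total RNA Xdh was 12.08, 11.89 and 12.11 with rapamycin, against 12.01, 11.73 and 11.80 with DMSO, which overlapped (0.18 ± 0.128, adjusted p = 0.415). Groups did not overlap for 2 of the 6 genes in hepatectomy polysomes, where 26.9% of all clusters did not.

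Aox1, which oxidises aldehydes and drugs with nitrogen rings, stood apart in the livers numbered 1 of both hepatectomy treatments. Its polysome levels were 10.95, 9.20 and 9.21 with rapamycin, against 10.35, 8.93 and 8.78 with DMSO. In total RNA they were 11.73, 9.27 and 9.63 with rapamycin, against 11.17, 9.30 and 9.53 with DMSO. The first liver of each treatment was thus above the other 2 in both fractions, and 0.12% of clusters had a larger residual SD than its 1.07. The rapamycin difference was 0.44 ± 0.714 in polysome RNA and 0.21 ± 0.714 in total RNA (adjusted p = 0.729 and 0.882). In refed polysomes Aox1 was 12.78, 12.68 and 12.34 with rapamycin, against 12.24, 11.88 and 12.11 with DMSO. Those groups did not overlap (0.53 ± 0.211), but the adjusted p was 0.957 with an unadjusted p of 0.02955. Gphn was the other gene of the 7 whose refed polysome groups did not overlap, where 17.8% of clusters did not.

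Suox, Mocs1 and Mocs2 had small estimated rapamycin differences in all 6 comparisons. For Suox, the mitochondrial enzyme that turns sulfite into sulfate, they ran between −0.30 in fetal polysomes and 0.24 in refed total RNA. For Mocs1 they ran between −0.26 in fetal polysomes and 0.17 in refed total RNA. For Mocs2 they ran between −0.09 in refed polysomes and 0.31 in refed total RNA. The 95% intervals of the fit were wider, such as −0.37 to 0.71 for Mocs1 in refed total RNA and −0.70 to 0.82 for Mocs2 in fetal polysomes. The smallest adjusted p among these 18 comparisons was 0.395, for Mocs2 in hepatectomy polysomes. Without refed total DMSO replicate 2, Mocs2 in refed total RNA was 0.54 with adjusted p = 0.03529, and 1756 clusters passed in place of 0. The other 11 of 12 fits without 1 array kept Mocs2 uncalled there, with adjusted p up to 0.7898.

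**Figure D2:**
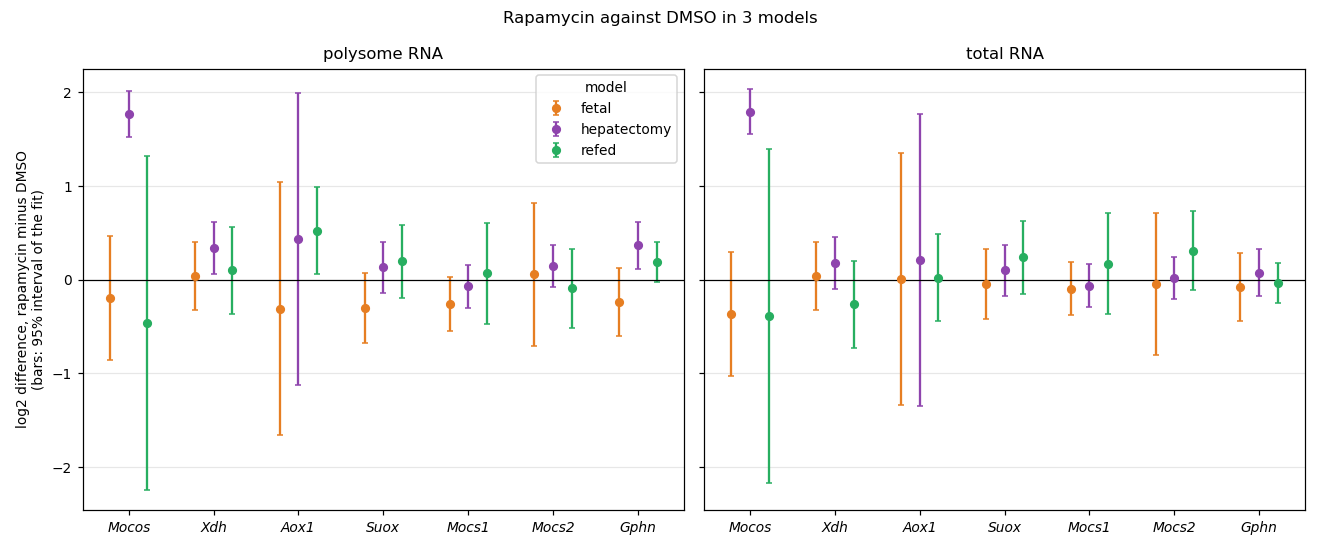
Log2 difference, rapamycin minus DMSO (y axis), for the 7 genes in polysome RNA (left) and total RNA (right); points are estimates, bars 95% intervals of the fit, colours the 3 models. The hepatectomy values of Mocos, 1.77 and 1.80, which chose the gene, stand alone above the others, and the widest bars are those of Mocos in refed livers and of Aox1 after hepatectomy and in fetal livers.

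Cell markers also moved with rapamycin after hepatectomy. Summed dividing-cell markers, 9 of 10 on the array, were 3716 to 9514 with rapamycin, against 15638 to 20913 with DMSO in polysome RNA. In total RNA they were 3153 to 8812 with rapamycin, against 13803 to 20774 with DMSO. Of the 9 genes 8 passed as lower in each fraction. Summed endothelial markers, 8 of 10 on the array, were 14333 to 16046 with rapamycin and 11414 to 13587 with DMSO in total RNA. Stellate cell markers, 8 of 8, were 8832 to 9474 with rapamycin and 6271 to 7799 with DMSO. Bile duct markers, 5 of 6, were 899 to 944 with rapamycin and 762 to 856 with DMSO, and macrophage markers, 8 of 8, overlapped (12115 to 14548 with rapamycin and 11180 to 14450 with DMSO). In polysome RNA the endothelial (11027 to 12424 with rapamycin, 8434 to 10770 with DMSO) and stellate sums (5301 to 5800 with rapamycin, 3380 to 5255 with DMSO) did not overlap either, whereas those of bile duct and macrophage did. Hepatocyte markers in total RNA were 162432 to 164974 with rapamycin and 162998 to 171385 with DMSO. Their part in the Mocos difference was not tested.

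Whether the rapamycin difference itself varied between models or fractions was also tested for the genes other than Mocos. Limma called 0 of 6 for hepatectomy against refed livers in polysome RNA (0.12% of clusters called) and in total RNA (0.516% called). It also called 0 of 6 for hepatectomy against fetal livers in polysome and in total RNA (0.00921% called in each). The smallest adjusted p among these 24 values was 0.429, for Gphn in polysome RNA (0.61 ± 0.203, hepatectomy minus fetal). It alone had an unadjusted p under 0.05, as did 6.53% of all clusters in that comparison. For Mocos the differences between models are descriptions, of 2.24 ± 0.768 and 2.18 ± 0.768 for hepatectomy minus refed in polysome and total RNA. Against fetal livers they were 1.97 ± 0.719 and 2.16 ± 0.719. Between fractions, limma called none of the genes and 0% of clusters in any model, with 158, 266 and 45 clusters at an unadjusted p under 0.05 in hepatectomy, refed and fetal livers.

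Fetal livers held less of most of these mRNAs than adult livers did. In total RNA of DMSO livers, 5 of the 7 genes (Xdh, Aox1, Suox, Mocs1 and Gphn) were lower in fetal than in refed livers and none was higher, where 47.1% of clusters passed, 28.1% higher and 19% lower. Against hepatectomy livers 4 of 6 were lower (Xdh, Suox, Mocs1 and Gphn), where 36.9% of clusters passed, 19.9% higher and 17% lower. The median difference over the 7 genes for fetal minus refed was −1.12, and over all clusters it was 0.04. Both comparisons use the same fetal livers.

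Xdh and Aox1 had the largest differences between fetal and refed livers. Xdh total RNA was 8.98, 9.54, 9.48 and 9.54 in fetal livers, against 12.01, 11.73 and 11.80 in hepatectomy livers and 11.81, 11.50 and 12.42 in refed livers. All fetal livers lay below all adult livers, with a difference of −2.46 ± 0.181 from hepatectomy livers (adjusted p = 6.19e-13) and of −2.52 ± 0.181 from refed livers (adjusted p = 2.34e-13), or 5.75-fold lower. Aox1 total RNA was 7.95, 7.89, 10.29 and 10.29 in fetal livers, against 11.17, 9.30 and 9.53 in hepatectomy livers and 12.93, 12.12 and 12.90 in refed livers. Fetal livers numbered 1 and 2 were below those numbered 3 and 4, and this order held in all 4 fetal groups. Aox1 fell by 3.55 ± 0.641 in fetal against refed livers, with adjusted p = 2.65e-05, whereas fetal and hepatectomy livers overlapped (−0.89 ± 0.641, adjusted p = 0.293).

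Suox, Mocs1 and Gphn were each about 1 unit lower in fetal than in refed livers. Suox was 10.67, 10.72, 11.05 and 11.31 in fetal livers, against 12.01, 12.18 and 11.68 in refed livers (−1.02 ± 0.170, adjusted p = 7.95e-06). Mocs1 was 8.13, 8.43, 8.83 and 8.63 in fetal livers, against 9.92, 9.91 and 9.01 in refed livers (−1.11 ± 0.168, adjusted p = 1.68e-06). Gphn was 11.06, 11.24, 11.18 and 11.05 in fetal livers, against 12.32, 12.32 and 12.41 in refed livers (−1.22 ± 0.144, adjusted p = 1.56e-08). In all 3 genes every fetal liver was below every refed liver, as in Xdh and Aox1, where 39.4% of clusters had no overlap. Against hepatectomy livers the differences were −0.93 ± 0.170 for Suox, −0.78 ± 0.168 for Mocs1 and −1.04 ± 0.144 for Gphn (adjusted p = 4.47e-05, 3.49e-04 and 5.27e-07). Fetal and hepatectomy groups did not overlap in 45.9% of clusters.

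Mocs2 and Mocos did not pass for fetal against refed livers. Mocs2 was 8.77, 8.70, 9.82 and 10.04 in fetal livers, against 9.40, 9.99 and 9.24 in refed livers (−0.21 ± 0.289, adjusted p = 0.577). As with Aox1, the fetal livers numbered 3 and 4 were the higher ones. For Mocos the difference was −1.12 ± 0.508 (95% interval −2.15 to −0.08, adjusted p = 0.0703). Without refed total DMSO replicate 2, the low refed liver, it was −1.77 with adjusted p = 0.006704, and without fetal total DMSO replicate 4 it was −1.33 with adjusted p = 0.0458. The other 5 of 7 such fits kept Mocos uncalled, with adjusted p up to 0.3384.

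Between the adult models, Aox1 alone of the 6 genes tested passed. It was lower after hepatectomy than after refeeding, with a difference of −2.65 ± 0.685 (adjusted p = 0.00641), where 17.5% of clusters passed, 12.4% higher and 5.03% lower. All 3 hepatectomy livers lay below all 3 refed livers, the one numbered 1 included, and without that liver the difference was −3.24 (adjusted p = 0.002574). In this comparison 27.3% of clusters had no overlap. Xdh differed by −0.06 (95% interval −0.46 to 0.33) and Suox by −0.09 (−0.46 to 0.28). Without refed total DMSO replicate 3, Mocs1 passed as well (−0.63, adjusted p = 0.008546). The other 5 of 6 such fits kept Mocs1 uncalled, with adjusted p up to 0.6213.

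**Figure D3:**
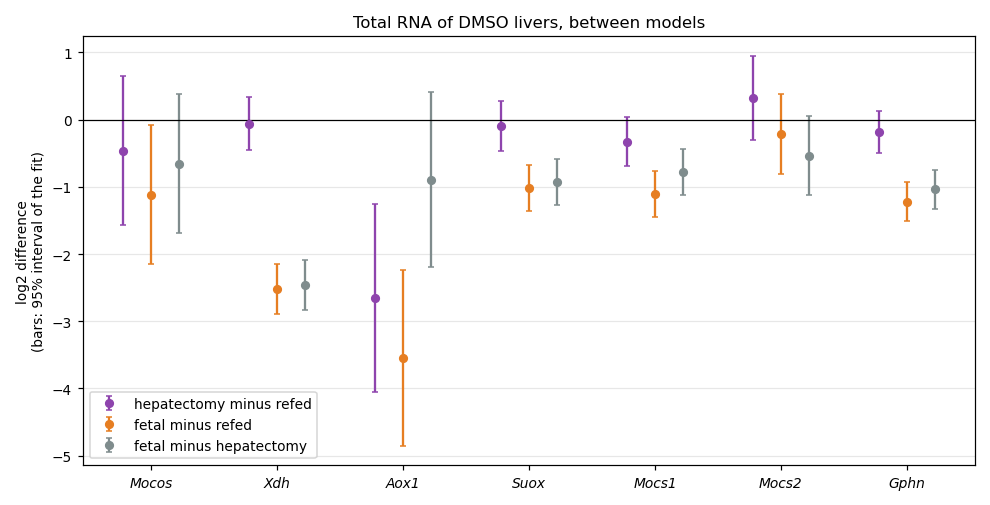
Log2 difference in total RNA of DMSO livers (y axis) for the 7 genes; points are estimates, bars 95% intervals of the fit, and colours the 3 pairs of models. Xdh, Suox, Mocs1 and Gphn lie below 0 in both comparisons of fetal livers and near 0 between the adult models, whereas Aox1 lies below 0 in both comparisons with refed livers.

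Blood-forming cells are abundant in fetal liver, and markers of several cell types moved with these differences. Summed erythroid markers, 7 of 8 on the array, were 30897 to 49744 in fetal total RNA with DMSO, against 1533 to 2196 in hepatectomy and 1144 to 1829 in refed livers. Markers of fetal hepatocytes, 5 of 5 on the array, were 49581 to 71320 in fetal livers, against 1608 to 2319 in hepatectomy and 1997 to 2702 in refed livers. Summed hepatocyte markers were 141336 to 146881 in fetal livers, against 162998 to 171385 in hepatectomy and 153159 to 161023 in refed livers. The brightest genes weigh most in such a sum. As a mean log2 level the hepatocyte markers were 12.435 to 13.048 in fetal, 13.581 to 13.69 in hepatectomy and 13.327 to 13.466 in refed livers. No listed marker can be at 0 on this intensity scale. The part of these cells in the fetal differences was not tested.

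Among the cofactor genes, polysome minus total RNA of the same livers was mostly above 0 for some and mostly below 0 for others. Mocs2, which encodes both subunits of molybdopterin synthase from overlapping reading frames, was higher in polysome than in total RNA in 20 of 20 livers. Gphn was lower in polysome RNA in 19 of 20 livers, Suox in 17, Mocs1 in 15, Xdh in 14 and Aox1 in 13, whereas Mocos was higher there in 17. Such liver counts were not made for all clusters, and they are descriptions. In DMSO livers the median of all clusters was itself above 0, at 0.09 after hepatectomy, 0.10 after refeeding and 0.04 in fetal livers. Among DMSO livers limma called 1 gene higher and 2 lower of 6 after hepatectomy, where 43.8% of clusters passed, 28.8% higher and 15% lower. It called 1 higher of 7 after refeeding, where 24.7% passed, 19.5% higher and 5.14% lower. In fetal livers it called 3 lower of 7, where 14.5% passed, 8.1% higher and 6.38% lower.

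Mocs2 polysome levels were 10.76, 10.74 and 10.96 in hepatectomy DMSO livers, against total RNA levels of 9.87, 9.80 and 9.93. In refed DMSO livers they were 10.60, 10.81 and 10.62 in polysome RNA, against 9.40, 9.99 and 9.24 in total RNA. In both models the fractions did not overlap, as in 50.9% of clusters after hepatectomy and 36.6% after refeeding, and the differences were 0.95 ± 0.102 (adjusted p = 3.69e-05) and 1.14 ± 0.192 (adjusted p = 0.00237). Fetal DMSO livers gave 10.03, 9.55, 10.44 and 10.35 in polysome RNA, against 8.77, 8.70, 9.82 and 10.04 in total RNA. There the difference was 0.76 ± 0.359 (adjusted p = 0.169), and with each liver as a block the adjusted p was 0.005481.

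Gphn polysome levels were 11.81, 11.48 and 11.43 in hepatectomy DMSO livers, against total RNA levels of 12.31, 12.02 and 12.17 (−0.59 ± 0.116, adjusted p = 0.00167). In fetal DMSO livers they were 10.33, 10.68, 10.80 and 10.45 in polysome RNA, against 11.06, 11.24, 11.18 and 11.05 in total RNA (−0.57 ± 0.170, adjusted p = 0.0366). The fractions did not overlap in either model. In refed livers they did not overlap either, and the difference was −0.27 ± 0.098 (adjusted p = 0.0668). It passed with cyclic loess scaling (−0.51, adjusted p = 0.008958) and without refed total rapamycin replicate 2 (adjusted p = 0.04293). The other 11 of 12 fits without 1 array kept it uncalled, with adjusted p up to 0.1623. The fetal call was lost when any of the 4 fetal total DMSO arrays, or polysome DMSO array 1, 2 or 4, was left out, with adjusted p up to 0.1145.

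Xdh had less of its mRNA in polysome RNA of adult livers and not of fetal livers. In hepatectomy DMSO livers its polysome levels were 11.24, 11.00 and 10.70, against 12.01, 11.73 and 11.80 in total RNA (−0.87 ± 0.128, adjusted p = 2.72e-04). In refed DMSO livers they were 11.16, 11.10 and 11.56 in polysome RNA, against 11.81, 11.50 and 12.42 in total RNA (−0.63 ± 0.213, adjusted p = 0.0503). With each liver as a block the refed adjusted p was 0.002372, and with cyclic loess scaling the difference was −0.87 (adjusted p = 0.02049). It also passed without refed polysome DMSO replicate 3, and without refed total DMSO replicate 2 adjusted p was 0.009207. The other 10 of 12 fits without 1 array kept it uncalled, with adjusted p up to 0.151. In fetal DMSO livers Xdh levels were 9.51, 9.88, 9.67 and 9.43 in polysome RNA, against 8.98, 9.54, 9.48 and 9.54 in total RNA (0.24 ± 0.173, adjusted p = 0.390). Whether adult and fetal livers differ in this was not tested.

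Suox and Mocs1 passed in fetal livers. Suox polysome levels were 9.70, 10.25, 10.36 and 10.50 in fetal DMSO livers, against 10.67, 10.72, 11.05 and 11.31 in total RNA (−0.74 ± 0.176, adjusted p = 0.0120), with no overlap, as in 23.2% of clusters. Mocs1 gave 8.05, 8.05, 8.23 and 7.95 in polysome RNA, against 8.13, 8.43, 8.83 and 8.63 in total RNA (−0.43 ± 0.135, adjusted p = 0.0419). The Mocs1 groups overlapped, and its call was lost when any 1 of 9 fetal arrays was left out, with adjusted p up to 0.1241. After hepatectomy Suox had −0.30 ± 0.125 (adjusted p = 0.0649, and 0.003462 with each liver as a block, 0.02135 with cyclic loess scaling and 0.007812 without the first polysome DMSO array). The other 11 of 12 fits without 1 array kept Suox uncalled there, with adjusted p up to 0.2572. Aox1, whose livers differ widely, had −0.64 after hepatectomy and −0.57 after refeeding (adjusted p = 0.483 and 0.0686), and with each liver as a block 0.0002845 and 0.00296. After refeeding it also passed with cyclic loess scaling (−0.81, adjusted p = 0.02719) and without refed total DMSO replicate 2 (−0.84, adjusted p = 0.002714). The other 11 of 12 fits without 1 array kept Aox1 uncalled there, with adjusted p up to 0.21. Mocos had 0.16 after hepatectomy, 0.25 after refeeding and 0.12 in fetal livers, the refed and fetal values with adjusted p = 0.862 and 0.844. The medians of all clusters were 0.09, 0.10 and 0.04.

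**Figure D4:**
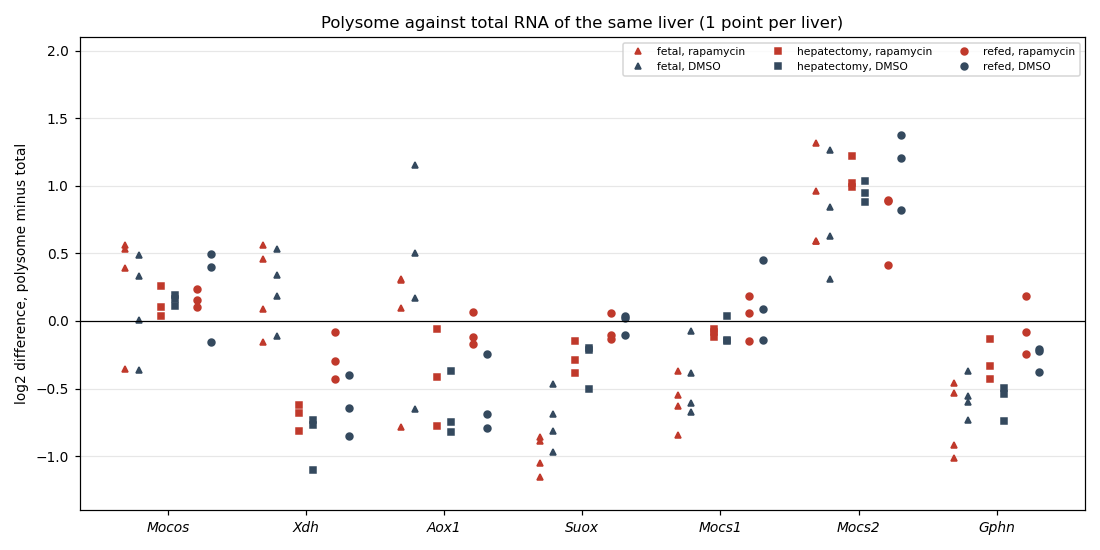
Log2 difference, polysome minus total RNA of the same liver (y axis), for the 7 genes, 1 point per liver; red marks rapamycin, dark blue DMSO, and shapes the 3 models. All 20 points of Mocs2 lie above 0 and 19 of 20 points of Gphn below it, while Xdh points of adult livers lie below 0 and most of those of fetal livers above it.

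The order of the 12 group means placed all 4 fetal groups lowest for Mocos, Xdh, Suox, Mocs1 and Gphn. For Mocos the hepatectomy rapamycin groups came first, at 10.31 ± 0.11 in polysome and 10.17 ± 0.01 in total RNA (SD, n = 3). The refed groups followed with the hepatectomy DMSO groups among them, between 9.09 ± 1.48 in refed polysome DMSO and 8.38 ± 0.17 in hepatectomy total DMSO livers, and neighbours within that stretch did not differ beyond their spread. The fetal groups closed the order, at 7.84 ± 0.43 to 7.36 ± 0.64 (n = 4). For Aox1 the 4 refed groups came first, between 12.67 and 12.08, and the other 8 groups, between 10.21 and 9.09, had SDs of 0.66 to 1.37, larger than most steps between them. For Mocs2 the order followed the fraction, with all 6 polysome groups above all 6 total RNA groups.

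**Figure D5:**
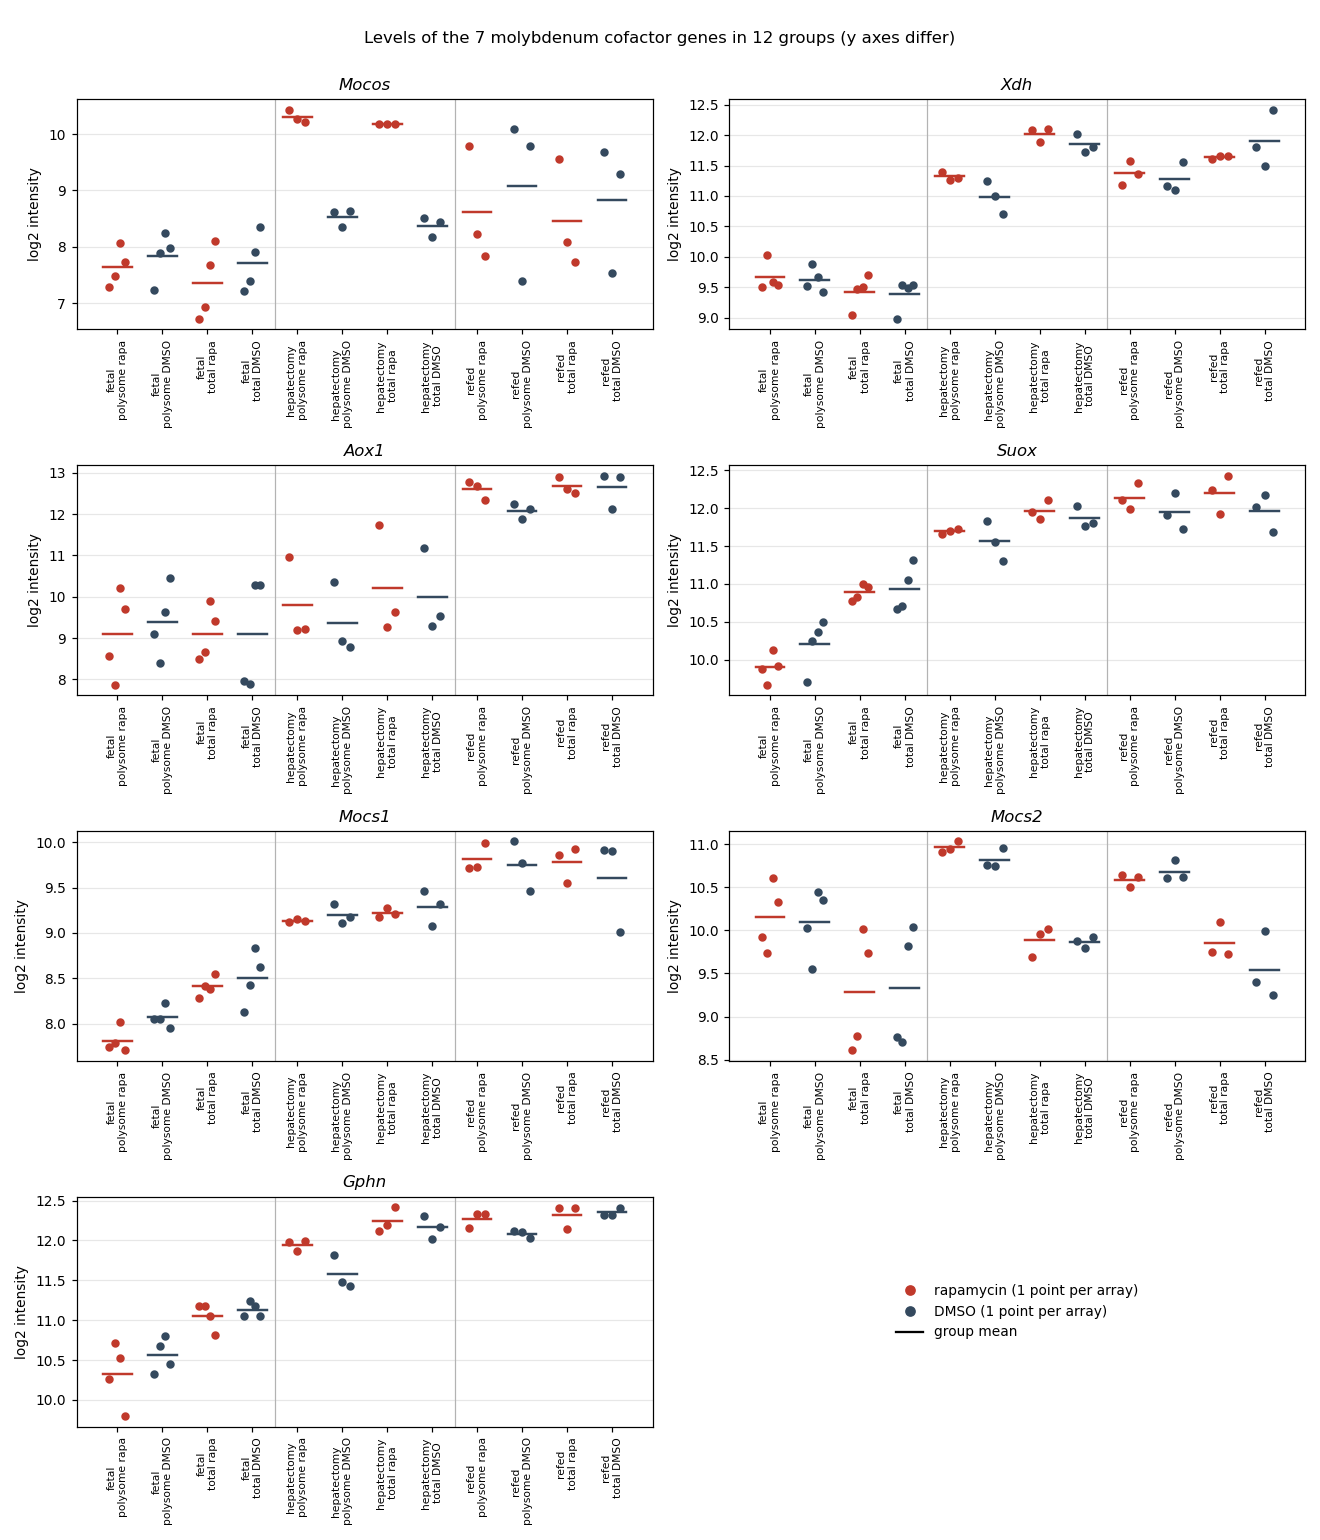
Log2 intensity (y axis, differing between panels) of the 7 genes in the 12 groups (x axis); each point is 1 array, lines are group means, red marks rapamycin and dark blue DMSO. The rapamycin arrays of hepatectomy livers stand above their DMSO arrays for Mocos, and fetal group means are lowest for Xdh, Suox, Mocs1 and Gphn.

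Over the 12 group means, the cofactor genes most alike were Suox and Gphn (Pearson r = 0.99), Suox and Mocs1 (0.97) and Mocs1 and Gphn (0.96). Mocos had r = 0.74 with Xdh and 0.30 with Aox1, and by rank (Spearman's rho) 0.67 and 0.62. These means include the hepatectomy rapamycin groups that chose Mocos. The points share models and livers, fetal groups set most of the range, and the values are descriptions. Among 10725 clusters with 1 symbol, the highest r with Mocos were those of Popdc2 (0.94), Prss21 (0.94), Cxcl14 (0.93), Nr0b2 (0.92) and Slc26a2 (0.92). The product of Nr0b2 holds down bile acid production, and Slc26a2 encodes a sulfate transporter. Nr0b2 was 11.12 ± 0.19 with rapamycin and 9.61 ± 0.65 with DMSO in hepatectomy polysomes (SD, n = 3), and Popdc2 was 9.12 ± 0.56 with rapamycin and 7.54 ± 0.39 with DMSO. Prss21 spanned only 6.66 to 7.23 over its 12 means.

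Of the other genes that use or make the cofactor, 4 were tested. Of these (Mocs3, Mtarc1, Mtarc2 and Aox3), 3 were lower in fetal than in refed livers, where 19% of all clusters were lower. They were Mtarc1 and Mtarc2, which encode amidoxime-reducing enzymes of the outer mitochondrial membrane (−3.83, adjusted p = 7.42e-06, and −0.75, adjusted p = 0.0419), and the aldehyde oxidase gene Aox3 (−3.61, adjusted p = 1.20e-04). The same 3 were lower in fetal than in hepatectomy livers, where 17% of all clusters were lower. Mocs3, which supplies the sulfur to MOCS2, was not called in any comparison. Rapamycin called none of the 4, where 6.35% and 5.01% of all clusters passed in hepatectomy polysome and total RNA, and 0% in refed and fetal livers. Their median differences in polysome and total RNA were 0.36 and 0.32 after hepatectomy. They were 0.09 and 0.33 after refeeding, and 0.08 and −0.10 in fetal livers.

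Around the enzymes, 15 genes of purine breakdown and salvage and 13 of sulfur amino acid and sulfite metabolism were tested. With rapamycin after hepatectomy, where 6.35% of all clusters passed in polysome and 5.01% in total RNA, 1 of 15 and 2 of 13 passed in polysome RNA, and 2 of each list in total RNA. The guanine deaminase gene Gda, which makes the xanthine that XDH oxidises, was higher in polysome RNA (0.41 ± 0.109, adjusted p = 0.0475) and in total RNA (0.43 ± 0.109, adjusted p = 0.0432), the only call of 15 in polysomes. In total RNA the nucleotidase gene Nt5c3a was lower (−0.59, adjusted p = 0.0280). Of the 13 sulfur genes, Cbs, which starts the path from homocysteine to cysteine, was lower in polysome (−0.59 ± 0.111, adjusted p = 0.0198) and total RNA (−0.54 ± 0.111, adjusted p = 0.0258). Papss2, which makes the activated form of sulfate, was higher in both (0.39 ± 0.081, adjusted p = 0.0257, and 0.36 ± 0.081, adjusted p = 0.0315). In fetal against refed livers 28.1% of all clusters were higher and 19% lower. Of the 15 purine genes 6 were higher and 5 lower, led by Ampd3 (3.19), an AMP deaminase of red cells. Of the sulfur genes 3 were higher and 5 lower, led by the sulfate transporter gene Slc26a1 (−1.92).

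Iron-sulfur clusters are carried by MOCS1, XDH and AOX1, and 14 genes of cluster assembly were tested. In polysome against total RNA of DMSO livers 11 of 14 were higher and 1 lower after hepatectomy, where 28.8% of all clusters were higher and 15% lower. After refeeding 10 of 14 were higher (19.5% of all clusters), and in fetal livers 4 of 14 (8.1% of all clusters). The median differences were 0.62, 0.78 and 0.38, against 0.09, 0.10 and 0.04 over all clusters. Glrx5, a mitochondrial carrier of clusters, was higher by 1.32 after hepatectomy, 1.55 after refeeding and 0.93 in fetal livers. Rapamycin called 0 of the 14 in any of the 6 comparisons with DMSO. Of all clusters it called 6.35% and 5.01% in hepatectomy polysome and total RNA, and 0% in refed and fetal livers.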

How the data were processed

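The deposited values are array intensities on a linear scale, which the authors made with RMA (background correction, scaling of arrays to a common distribution, summary per transcript cluster), per the submitters' processing notes. No version or settings of RMA were given in the sources used here. Values ran from 3.77 to 28447 over 28826 clusters and were put on the log2 scale here, without a pseudocount. The array medians were 7.09 to 7.40. Precision is limited by the number of livers, 3 or 4 per group.

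The 10860 clusters tested had at least 1 gene symbol and a mean log2 intensity not under the 30th percentile over the named ones, 6.70. Of 28826 clusters, 15209 had 1 symbol, 306 several and 13311 none. Differences, standard errors and 95% intervals came from limma 3.58.1 in R 4.3.3 on group means, with empirical Bayes moderation, an intensity trend, two-sided p-values and Benjamini-Hochberg adjustment over all clusters tested, at 0.05. Fits within a model used its arrays, and fits between models all 40. The fit was tested on simulated data. A p-value measures the spread between numbered replicates. The main fits took each array as independent and did not pair the 2 fractions of a liver. Their standard errors and p-values thus leave out the likeness of those fractions, which only the liver block took in.

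Members and lists were chosen with earlier results of these data known. Genes named are the 7 members, up to 4 genes of each list with the smallest adjusted p where they passed, the 5 most like Mocos over group means, and, after values were seen, the neighbours of Mocos in rank and the genes of the closing observations.

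Deviations from group means went together in the fractions of 1 treatment and number: r was 0.506 to 0.723 after hepatectomy, 0.459 to 0.818 after refeeding and 0.328 to 0.693 in fetal livers. Between different numbers r was −0.535 to −0.147, −0.682 to 0.406 and −0.697 to 0.61, so only the fetal ranges overlapped. In the fetal model these values thus do not settle whether equal numbers of the 2 fractions are 1 liver. Rapamycin and DMSO livers of 1 number were alike in the fetal model, with r of 0.593 to 0.751 in polysome and 0.425 to 0.707 in total RNA, and not in the adult models. Fetal livers of different number reached 0.593 and 0.608 there, so these values do not settle whether equal numbers are pairs. Alternatives were cyclic loess scaling, no intensity filter, blocks, smaller sets of arrays and leaving out each array. Each gene had 1 cluster, so a mean over clusters was not run. Sequences and names are from RefSeq tables of GRCr8, where all 7 symbols were found.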

Additional observations from a re-analysis of the deposited data

Results flagged for a closer look

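In 28 sets of 4 fetal arrays (7 genes in 4 groups), 2 held an array whose gap to its nearest neighbour was a larger share of the range than Dixon's 95% limit for sets of 4, and chance alone gives about 1 in 20. Both concern Xdh. In fetal polysome RNA with rapamycin, replicate 2 was at 10.03 and the others at 9.50 to 9.59, a gap of 0.8308 of the range. In fetal total RNA with DMSO, replicate 1 was at 8.98 and the others at 9.48 to 9.54, a gap of 0.8928 of the range. The adult groups of 3 were too small for this check.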

How the results depend on the processing

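Over the comparisons of single genes, 477 of 490 other settings and 1596 of 1624 fits without 1 array kept the side of the threshold. Among those, 5 and 133 uncalled values changed sign. No called difference of the 7 genes changed direction. With cyclic loess scaling the median of all clusters for polysome minus total RNA after refeeding was 0.00 in place of 0.10. In that setting 4 members passed (Mocs2 higher, and Xdh, Aox1 and Gphn lower), as did 2369 of the 10860 clusters. The uncalled Mocs1 turned to −0.01. Of all calls, 54.5% were then higher after hepatectomy in place of 65.8%, 61.1% after refeeding in place of 79.2%, 45.5% in fetal livers in place of 55.9%, and 41.4% with rapamycin in hepatectomy total RNA in place of 29.4%. With the liver as a block, 5 members passed after hepatectomy (6629 of the 10860 clusters), 3 after refeeding (4615 clusters) and 4 in fetal livers (3044 clusters). In adults, rapamycin and DMSO livers share only a replicate number. That block gave 1481 clusters and 1 member (Gphn, adjusted p = 0.04785) in hepatectomy polysomes, 1246 in hepatectomy total RNA and 2 in refed polysomes. With it Mocos passed for fetal minus refed (−1.25, adjusted p = 0.02807) and Mocs2 for fetal minus hepatectomy (adjusted p = 0.03124). With 1 fraction alone 146 and 14 clusters passed in hepatectomy polysome and total RNA, in place of 690 and 544. Without both livers numbered 1, chosen after seeing the data, 1 member and 756 clusters passed in polysomes, and 26 clusters in total RNA. With the compared groups alone 620 passed for hepatectomy minus refed and 3402 for fetal minus refed. For the rapamycin difference between hepatectomy and refed livers, cyclic loess, the block and the groups alone gave 7, 68 and 1 clusters in polysome and 29, 306 and 1 in total RNA. Against fetal livers they gave 2, 29 and 0 in polysome and 0, 69 and 0 in total RNA, with 0 also without the filter. Without the filter Mocs1 in fetal fractions had adjusted p = 0.06363. The cause of these shifts was not tested. Leaving out 1 array gave 57 to 1687 clusters and 0 to 2 members in hepatectomy polysomes, 4 to 847 in hepatectomy total RNA, 0 to 1 in refed polysomes, and 0 to 1756 clusters and 0 to 1 members in refed total RNA. For polysome minus total RNA it gave 1868 to 3582 clusters and 1 to 3 members after refeeding, and 883 to 1899 clusters and 1 to 3 members in fetal livers. For hepatectomy minus refed it gave 1119 to 2890 clusters and 1 to 2 members. For the rapamycin difference between models it gave 3 to 47 and 4 to 1135 (against refed) and 1 to 36 and 0 to 70 (against fetal) in polysome and total RNA.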

Other observations

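Genes were sought whose deviations from the group means followed those of the most variable member, in the same or the opposite direction. The search covered clusters with a residual SD of at least 0.5 and was made after the members' values had been seen. In the 12 refed arrays the closest to Mocos was Hsd3b5, a steroid reductase gene of the 3β-hydroxysteroid dehydrogenase family. In refed total RNA it was 12.69, 12.03 and 11.13 with rapamycin, against 12.04, 10.30 and 12.37 with DMSO, so it was lowest in the same livers as Mocos. Insig1, whose product holds back sterol synthesis, moved the other way, at 11.16, 11.94 and 11.98 with rapamycin, against 10.11, 12.26 and 11.03 with DMSO. In the 16 fetal arrays the closest to Aox1 was Sirt3, a mitochondrial deacetylase gene. Its total RNA levels were 7.65, 7.96, 8.92 and 8.36 with rapamycin, against 7.58, 7.71, 9.34 and 9.27 with DMSO, so livers numbered 3 and 4 were higher for both genes. In the 12 hepatectomy arrays the closest to Aox1 was Evc, which was lowest in the liver numbered 1 of all 4 groups, such as 7.47, 8.70 and 8.48 with rapamycin against 7.33, 8.14 and 7.62 with DMSO in total RNA. The pairs were picked by the size of r, of either sign, out of 793 refed, 656 fetal and 190 hepatectomy clusters, and no test was made.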
